A study of Mus musculus with 6 samples.

Results

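Voltage-gated sodium and calcium channels were followed in cultured mouse oligodendrocyte progenitors (OPCs), glial cells that divide and later form myelin, through all 40 genes whose symbol starts with Scn, a number and a or b, or with Cacn. Each of the 40 was listed in at least 1 library, among 18743 genes listed in all. The cells came from brains of wild type C57BL/6 pups labelled as postnatal day 1. They were isolated with magnetic beads against the PDGF receptor CD140 and grown for 3 days. The 3 vehicle samples then received 0.25% DMSO and the 3 hemin samples 50 µM hemin, the oxidised form of heme, both for 12 h. The study concerns cell death after bleeding in the brain, so the comparison asks how transcripts of these channels differ after exposure to a breakdown product of blood. The labels do not say whether the hemin samples also held DMSO, how many pups were pooled, or whether replicates were separate cultures. The p-values therefore cover only sample-to-sample spread, part of which may be technical.

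Sodium channels are built from 1 large pore subunit (Scn genes ending in a) and small beta subunits (ending in b), and carry the rising phase of the action potential. Calcium channels have a pore subunit (Cacna1 genes), an intracellular beta subunit (Cacnb) that brings the pore to the membrane, and an extracellular alpha2delta subunit (Cacna2d). The Cacng genes were named as gamma subunits, but most encode TARPs, transmembrane proteins that traffic and gate AMPA-type glutamate receptors. OPCs are known to hold sodium and calcium channels, to receive synaptic input from neurons, and to lose much of this equipment as they mature.

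Libraries held between 6339966 and 6523639 expected counts (estimated reads), and listed 15383 to 16890 genes. Of 10 OPC markers tested, 9 fell with hemin, Lhfpl3 being the other, and their summed level was 1213 to 1462 FPKM with vehicle and 389 to 593 with hemin (FPKM is a level scaled for transcript length and sequencing depth). Among all genes tested, 16.2% were called higher and 15.7% lower. Transcripts that mark other cell types were also present. Of 16 neuronal markers 3 were called higher and 6 lower (sum 234 to 272 FPKM with vehicle, 217 to 228 with hemin), and none was at 0 in any library. Of 7 astrocyte markers 1 was called higher and 2 lower (456 to 547 and 379 to 513 FPKM). Of 8 microglia markers 5 were tested and 1 was higher (6.60 to 12.4 and 16.5 to 17.5 FPKM), with P2ry12 and Tmem119 at 0 in 2 vehicle libraries each. Of 8 endothelial and mural markers 5 were tested and 2 were higher (5.12 to 9.41 and 10.4 to 15.7 FPKM), with Cldn5 at 0 in 2 vehicle libraries and 1 hemin library. The 2 were Pecam1 and Kdr, which did not exceed 0.17 and 0.22 FPKM with vehicle. Cldn5 and Cdh5 were not tested and did not exceed 0.25 and 0.23 FPKM in any library. Neurons express most of the genes described here, and in bulk RNA fewer cells of a type and less RNA per cell cannot be told apart. The part of other cells in the results was not tested.

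Of the 40 subunits, 26 had enough counts to be tested. Calls were made with edgeR's quasi-likelihood test at an adjusted p below 0.05 over all 12779 genes tested. With hemin 6 subunits were lower, the L-type pores Cacna1c and Cacna1d, the TARPs Cacng2 and Cacng4 and the sodium channel beta subunits Scn2b and Scn3b, and 1 was higher. The 6 lower calls were 23.1% of the tested subunits, beside 15.7% of all genes, and the single higher call was 3.85%, beside 16.2%. Together 26.9% of the subunits were called, beside 31.9% of all genes. Among the lower calls, Cacng2 and Scn2b were kept by the count filter through the vehicle libraries alone, where they are higher. The estimate was below 0 for 18 of 26 subunits (69.2%, beside 49.9% of all genes), with a median log2 fold change of -0.49 beside 0.00 over all genes. All 3 hemin libraries lay below all 3 vehicle libraries for 11 tested subunits (42.3%, beside 27.5% of all genes), and above them for 2, against 21.5% of all genes. Together 13 had groups that did not overlap, beside 49.1% of all genes, counted in either direction.

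**Figure D1:**
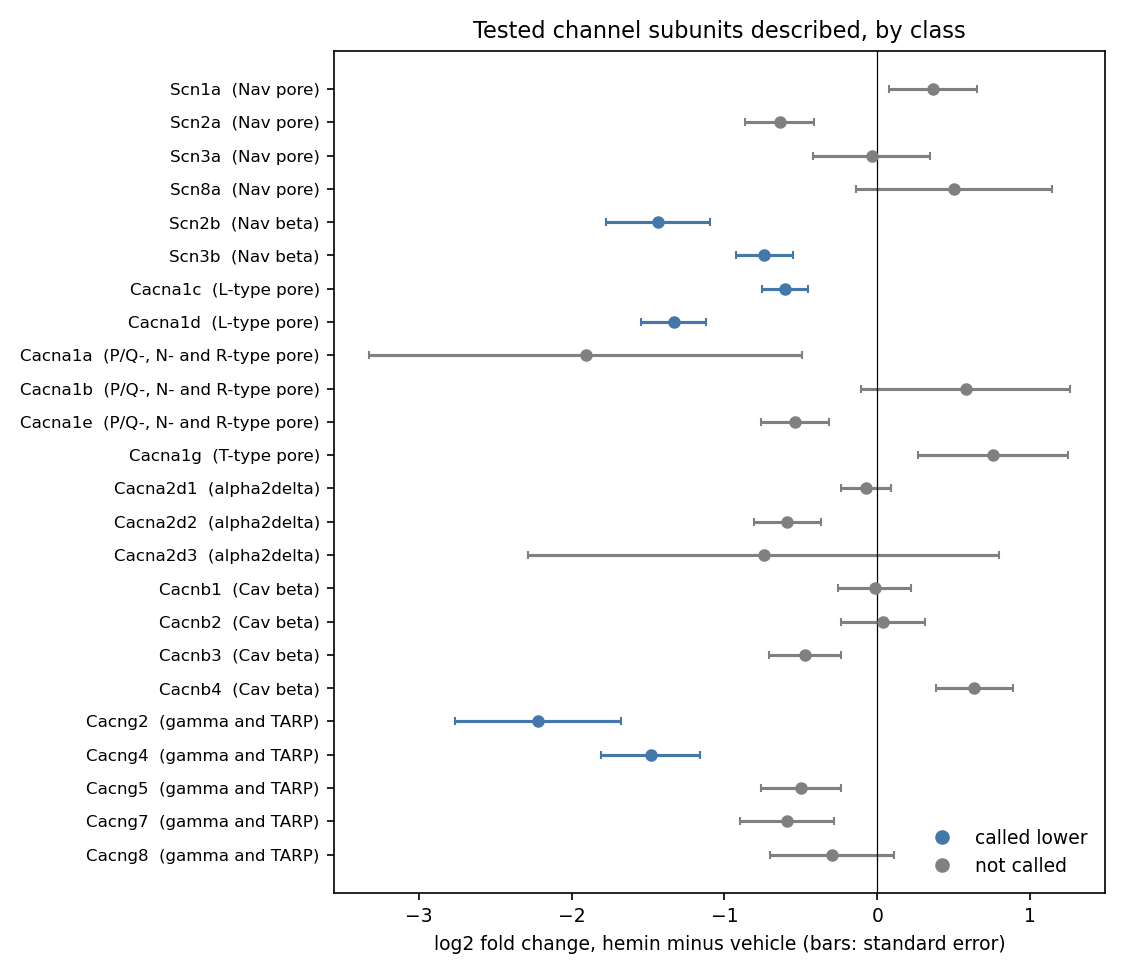
Log2 fold change of hemin over vehicle (x axis) for 24 of the tested subunits, grouped by class on the y axis, with standard errors as bars. The 6 subunits called lower are blue and subunits without a call are grey; Cacna1a and Cacna2d3 have the widest errors.

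Cacng4 (gene identifier 54377 in the files) was the most abundant subunit and had the largest difference in level. It encodes a TARP that is found in glia and in the developing brain. Its level was 34.0, 34.7 and 31.0 FPKM in vehicle replicates 1 to 3 and 5.84, 17.1 and 11.6 FPKM in hemin replicates 1 to 3. The groups did not overlap, and hemin replicate 1 was the lowest. Cacng4 fell 2.79-fold (log2 fold change -1.48 ± 0.32, SE, edgeR adjusted p = 0.0125). The call held when any single library was left out.

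Cacng2 (12300), the founding TARP, known as stargazin, had the largest fold among the lower calls at a far lower level. It stood at 1.22, 0.82 and 0.85 FPKM under vehicle against 0.04, 0.24 and 0.32 under hemin, from 74 counts in all against 15. No hemin library reached the lowest vehicle library. It fell 4.66-fold (log2 fold change -2.22 ± 0.54, edgeR adjusted p = 0.0186). The call was lost without vehicle replicate 1 (edgeR adjusted p = 0.0691) or hemin replicate 2 (0.0561).

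The remaining Cacng genes did not pass. Cacng7, a TARP of another subfamily, gave 8.85, 6.84 and 10.03 FPKM under vehicle against 3.59, 5.73 and 7.18 under hemin (log2 fold change -0.59 ± 0.31, edgeR adjusted p = 0.181). Cacng5, of the same subfamily, gave 2.84, 3.55 and 3.43 FPKM under vehicle against 2.76, 2.39 and 1.51 under hemin, without overlap (-0.5 ± 0.26, edgeR adjusted p = 0.184). Cacng8, a TARP abundant in hippocampal neurons, gave 2.64, 2.26 and 2.59 FPKM under vehicle against 0.95, 3.13 and 1.85 under hemin (-0.30 ± 0.41, edgeR adjusted p = 0.617). Their estimates were all below 0, but only the libraries of Cacng5 were separate. Cacng1, the gamma subunit of the skeletal muscle channel, Cacng3 and Cacng6 had too few counts to be tested, with at most 4, 14 and 8 counts in a library. Summed over its 8 genes the class stood at 48.4 to 50.3 FPKM with vehicle and at 14.8 to 29.8 with hemin, which is 2.19-fold lower by the means. By summed counts scaled for depth the ratio was 1.94. Cacng4 alone made up 33.3 of the mean of 49.3 FPKM with vehicle and 11.5 of 22.5 with hemin. The sum therefore largely repeats the Cacng4 values. The summed OPC markers were lower in the same libraries, and their part in the class sum was not tested.

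The L-type pores that OPCs express were both lower. Cacna1d (12289), which opens at more negative voltages than its relatives, stood at 2.24, 1.93 and 1.54 FPKM under vehicle against 0.61, 0.90 and 0.70 under hemin. The highest hemin library was below the lowest vehicle library. It fell 2.52-fold (log2 fold change -1.33 ± 0.21, edgeR adjusted p = 0.00389), and the call held without any single library. Cacna1c (12288), the main L-type pore of heart and brain, stood at 2.99, 2.97 and 2.67 FPKM under vehicle against 1.45, 1.84 and 2.18 under hemin, again without overlap. It fell 1.52-fold (-0.60 ± 0.15, edgeR adjusted p = 0.0205). Leaving out any of 3 libraries ended this call, namely vehicle replicate 1 (edgeR adjusted p = 0.0860), vehicle replicate 2 (0.0821) or hemin replicate 2 (0.0620). So did limma at a pseudocount of 0.1 (limma adjusted p = 0.0524) and limma on log2(FPKM + 1) with no filter (0.0788). Exons of Cacna1d and Cacng2 overlap a gene on the opposite strand in the GENCODE annotation. No source used here says whether the counting used strand. For Cacna1d that gene is Chdh, which had a mean of 0.1 FPKM with vehicle and 0.12 with hemin, and for Cacng2 it is A730060N03Rik, not used here. The pores of retina and skeletal muscle, Cacna1f and Cacna1s, had at most 1 count in any library. Summed over the 4 genes, L-type pores stood at 4.21 to 5.25 FPKM with vehicle and at 2.08 to 2.90 with hemin, a ratio of the means of 0.538. The lower OPC markers stand beside this sum too, and their part in it was not tested.

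Promoter sequence is shown for the 4 members called lower that have an entry, Cacna1c, Cacna1d, Cacng2 and Scn2b, to set genes with one direction of change beside each other. Each run is the 250 bases before an annotated transcription start, 5′ to 3′ on the gene's strand, from RefSeq on GRCm38.p6. Capitals mark matches, on either strand, to any of 4 motifs. The GC box, bound by Sp family factors, was searched as the letters GGGCGG with overlapping matches counted. The TATA box, which places the start of transcription in some promoters, was searched as TATAAA. The E-box, a site type of basic helix-loop-helix factors, was searched as CAGCTG. The antioxidant response element was searched as TGACNNNGC, where N is any base. Cacna1c and Cacna1d are shown at each start in the table.
Cacna1c, chr6:118757975-118758224, minus strand: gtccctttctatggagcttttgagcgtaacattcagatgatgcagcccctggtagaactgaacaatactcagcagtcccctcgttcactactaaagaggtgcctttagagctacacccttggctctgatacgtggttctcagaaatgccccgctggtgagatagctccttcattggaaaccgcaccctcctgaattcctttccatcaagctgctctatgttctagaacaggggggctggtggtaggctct
Cacna1c, chr6:119108496-119108745, minus strand: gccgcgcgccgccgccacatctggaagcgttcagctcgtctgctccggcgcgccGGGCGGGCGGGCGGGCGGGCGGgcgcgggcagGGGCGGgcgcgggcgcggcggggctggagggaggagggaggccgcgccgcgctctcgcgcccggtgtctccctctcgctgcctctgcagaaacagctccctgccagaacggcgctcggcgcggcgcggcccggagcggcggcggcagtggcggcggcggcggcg
Cacna1c, chr6:119196410-119196659, minus strand: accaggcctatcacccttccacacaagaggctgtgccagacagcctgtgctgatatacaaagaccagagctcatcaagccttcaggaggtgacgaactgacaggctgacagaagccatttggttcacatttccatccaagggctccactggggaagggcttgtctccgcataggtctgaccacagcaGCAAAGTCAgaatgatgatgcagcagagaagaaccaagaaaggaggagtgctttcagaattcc
Cacna1d, chr14:30353487-30353736, minus strand: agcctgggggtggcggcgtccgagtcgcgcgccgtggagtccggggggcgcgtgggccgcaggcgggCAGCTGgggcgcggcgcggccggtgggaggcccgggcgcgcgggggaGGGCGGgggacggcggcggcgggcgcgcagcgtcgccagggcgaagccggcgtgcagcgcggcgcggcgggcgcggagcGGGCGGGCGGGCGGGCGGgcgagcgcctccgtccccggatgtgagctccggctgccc
Cacna1d, chr14:30491157-30491406, minus strand: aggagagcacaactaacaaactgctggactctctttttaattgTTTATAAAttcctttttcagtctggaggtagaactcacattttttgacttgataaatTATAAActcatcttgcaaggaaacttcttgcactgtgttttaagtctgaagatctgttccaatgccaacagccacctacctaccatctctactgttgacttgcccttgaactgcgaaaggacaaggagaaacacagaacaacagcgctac
Cacng2, chr15:78119281-78119530, minus strand: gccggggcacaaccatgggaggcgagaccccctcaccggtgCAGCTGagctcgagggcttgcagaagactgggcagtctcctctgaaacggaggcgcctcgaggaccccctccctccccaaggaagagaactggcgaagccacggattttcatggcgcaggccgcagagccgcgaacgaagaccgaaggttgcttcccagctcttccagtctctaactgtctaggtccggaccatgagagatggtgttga
Scn2b, chr9:45117626-45117875, plus strand: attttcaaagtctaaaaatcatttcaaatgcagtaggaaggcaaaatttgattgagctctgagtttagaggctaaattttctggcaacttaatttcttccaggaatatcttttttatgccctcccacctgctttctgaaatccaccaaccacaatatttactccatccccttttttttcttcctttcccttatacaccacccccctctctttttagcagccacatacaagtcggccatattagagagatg

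The 3 Cacna1c windows, in the order printed, had a GC content of 50.4% with no match, 82.8% with 6 GC boxes, and 51.6% with 1 antioxidant response element. The first Cacna1d window had a GC content of 86.4% with 5 GC boxes and 1 E-box, and the other 39.6% with 3 TATA matches. The Cacng2 window had 62.0% with 1 E-box, and the Scn2b window 38.4% with no match. GC boxes were thus in 1 window each of the L-type pores Cacna1c and Cacna1d, and the E-box in 1 window each of Cacna1d and Cacng2. Among 41 windows of the 30 subunits that have one, 15 held a GC box, 11 the E-box, 2 a TATA box and 2 the antioxidant response element. The shares among all 32851 promoter windows of this length were 32.7%, 13%, 12.4% and 10.2%. The letters TGACGTCA (cyclic AMP response element, 1.55% of all windows) and TTCAGCACC (part of the neuronal silencer element RE1, 0.301%) were in none of the 41.

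Other calcium channel pores were low. None of the 4 tested was called by edgeR or DESeq2, beside 31.9% of all genes called by edgeR, and 1 had an unadjusted edgeR p below 0.05. Limma with a filter on the mean FPKM tested only Cacna1b of these and did not call it, and limma with no filter called none. Cacna1e, the R-type pore, was between 0.41 and 0.54 FPKM with vehicle and between 0.31 and 0.33 with hemin, without overlap (log2 fold change -0.54 ± 0.22, edgeR adjusted p = 0.102). Cacna1b, the N-type pore of nerve terminals, gave 1.56, 0.16 and 0.79 FPKM under vehicle against 0.60, 1.39 and 1.70 under hemin (0.58 ± 0.68, edgeR adjusted p = 0.557). Cacna1g, a T-type pore, ranged from 0.20 to 0.5 FPKM with vehicle and from 0.28 to 0.81 with hemin (0.76 ± 0.49, edgeR adjusted p = 0.277). Cacna1i, the last T-type pore, was not tested, with 8 to 15 counts in every library. The replicates of Cacna1b covered a wide range in both groups, which overlapped.

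Some estimates jumped between 0 and high values among replicates of 1 group. Cacna1h, a T-type pore, was listed at 327 counts (4.29 FPKM) in vehicle replicate 3 and 270 (3.61 FPKM) in hemin replicate 2, and at 0 in the other 4 libraries, so it was not tested. Cacna2d3 was listed at 0, 19 and 45 counts under vehicle against 36, 0 and 0 under hemin. Cacna1a, the P/Q-type pore, was listed at 0, 29.6 and 22.1 under vehicle and at 0, 12.5 and 0 under hemin. A 0 beside 30 or more counts in the same group occurred in 2 of the 24 subunits that reach 30 counts in a library (8.33%) and in 245 of 11906 such genes in all (2.06%). The 2 are Cacna1h and Cacna2d3, and Cacna1a fell just short at 29.6 counts. These zeros can be failed estimates of the authors' counting, so no absence is read from them, and neither Cacna1a nor Cacna2d3 passed (edgeR adjusted p = 0.341 and 0.747). Scn8a was uneven without zeros, at 174, 111 and 34 counts under vehicle against 227, 148 and 55 under hemin.

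**Figure D2:**
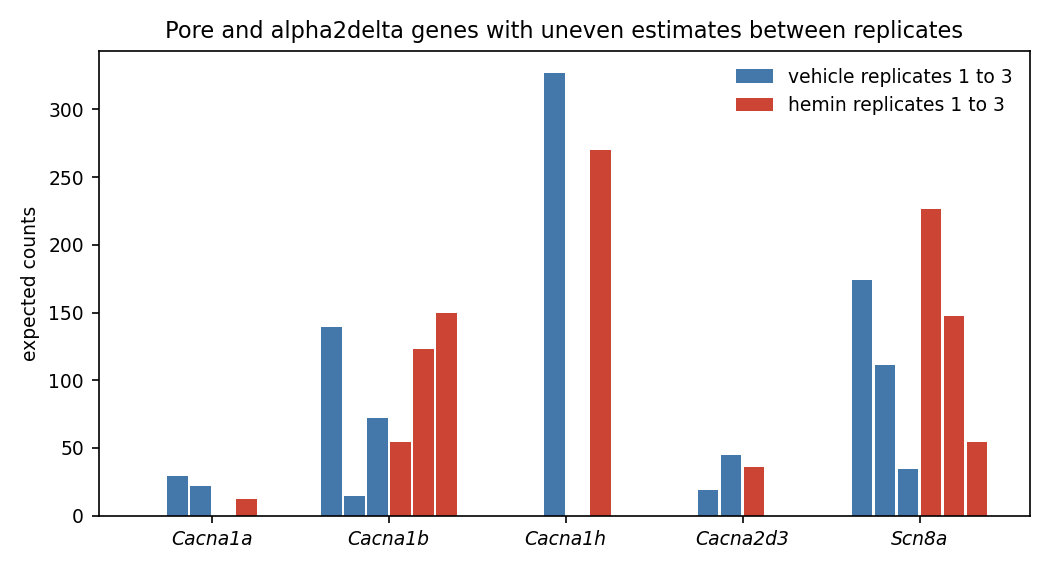
Expected counts (y axis, from 0) of 5 pore and alpha2delta genes in each library, vehicle replicates 1 to 3 in blue and hemin replicates 1 to 3 in red, left to right. Cacna1h appears in only 2 of 6 libraries, at 327 and 270 counts, while Cacna1b and Scn8a are present in all 6 with a wide spread inside both groups.

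The beta and alpha2delta subunits, which set how many calcium channels reach the membrane, held no call by edgeR with TMM scaling or by DESeq2. The share of all genes called by edgeR was 31.9%. Limma held no call either, though with its filter it did not test Cacna2d3. At an unadjusted p below 0.05, edgeR had 1 of 4 beta genes and 1 of 3 alpha2delta genes tested. Cacnb3, the most abundant beta subunit, gave 12.8, 11.1 and 10.5 FPKM under vehicle against 5.02, 8.96 and 9.97 under hemin, without overlap (log2 fold change -0.48 ± 0.23, edgeR adjusted p = 0.162). Cacnb4 stood on the other side, at 0.93, 1.87 and 1.48 FPKM under vehicle against 2.18, 2.02 and 2.33 under hemin (0.63 ± 0.25, edgeR adjusted p = 0.0946). All 3 hemin libraries of Cacnb4 lay above the vehicle libraries.

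Cacnb1, the beta subunit of skeletal muscle that is also found in brain, gave 3.70, 3.40 and 4.42 FPKM under vehicle against 2.88, 3.31 and 4.88 under hemin (edgeR adjusted p = 0.965). Cacnb2 gave 1.45, 1.38 and 1.43 FPKM under vehicle against 1.84, 1.29 and 1.06 under hemin (edgeR adjusted p = 0.935). Cacna2d1, a binding site of gabapentin drugs, gave 8.0, 6.13 and 6.88 FPKM under vehicle against 7.49, 5.83 and 5.86 under hemin (log2 fold change -0.08 ± 0.16, edgeR adjusted p = 0.757). The groups overlapped for all 3 genes, and Cacna2d1 had one of the smallest errors among the subunits. Cacna2d2 gave 1.44, 1.24 and 1.04 FPKM under vehicle against 0.80, 0.80 and 0.79 under hemin, without overlap (-0.59 ± 0.22, edgeR adjusted p = 0.0768), and passed only when libraries were scaled by their totals alone (-0.68, edgeR adjusted p = 0.0475). Cacna2d4 had at most 1 count in any library.

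Among sodium channel subunits, 2 of the 3 beta subunits tested were called lower, beside 15.7% of all genes. Scn3b (235281), a beta subunit of the developing nervous system, stood at 6.09, 5.66 and 4.92 FPKM under vehicle against 2.59, 2.99 and 4.12 under hemin. It fell 1.67-fold (log2 fold change -0.74 ± 0.19, edgeR adjusted p = 0.0214). Scn2b (72821), a beta subunit that is linked to the pore by a disulfide bond, stood at 0.32, 0.44 and 0.29 FPKM under vehicle against 0.12, 0.12 and 0.13 under hemin, and fell 2.70-fold (-1.44 ± 0.34, edgeR adjusted p = 0.0173). Neither gene had overlapping groups. The Scn3b call was lost without vehicle replicate 1 (edgeR adjusted p = 0.0851), vehicle replicate 2 (0.0762) or hemin replicate 2 (0.0703). The Scn2b call, which rests on 43 counts against 15, was lost without vehicle replicate 1 (edgeR adjusted p = 0.0531), vehicle replicate 2 (0.0795), hemin replicate 2 (0.0638) or hemin replicate 3 (0.0514), and with DESeq2 (DESeq2 adjusted p = 0.111).

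The remaining beta subunit described here, Scn4b, had at most 4 counts in a library.

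Scn4a, the sodium channel of skeletal muscle, did not reach the count filter and is named here after its values were seen. It had 0, 0 and 1 count under vehicle against 10, 18 and 12 under hemin. The ratio of the summed counts, 40 to 1 and scaled by the library totals, was 39.1, with an exact 95% counting interval from 6.63 to 1584 that covers counting error only. With no filter edgeR called it higher (edgeR adjusted p = 0.00394), and it did not enter the test when hemin replicate 2 or 3 was left out. Of 12 skeletal muscle markers, 9 were listed and 2 were tested, and both rose, Myod1, the transcription factor of the muscle programme, from at most 0.06 FPKM to 7.60 to 13.3 FPKM, and Des, the muscle intermediate filament desmin, 6.60-fold (edgeR adjusted p = 0.000199 and 0.00803). Among all genes tested, 16.2% were called higher, but that share is no measure for these 2. Des did not exceed 0.18 FPKM with vehicle. A gene so near 0 with vehicle can pass the count filter only through the hemin libraries, where it is high. The sum of the 9 listed muscle markers was 0.65 to 1.78 FPKM with vehicle and 11.0 to 15.9 with hemin. Most of it was Myod1 in the hemin libraries. Tnnt1, a troponin, overlapped between the groups (0.38, 1.48 and 0.6 FPKM under vehicle against 0.61, 1.23 and 1.13 under hemin), while Myog, Myf6 and Ckm were at 0 with vehicle and did not exceed 0.16 FPKM with hemin. Acta1 did not overlap, at 0, 0.16 and 0.08 FPKM under vehicle against 0.4, 0.97 and 1.06 under hemin. Nor did Tnni1, at 0 with vehicle against 0.12, 0.36 and 0.24 FPKM under hemin. Chrna1 was between 0.03 and 0.1 FPKM with vehicle and between 0.1 and 0.25 with hemin. The part of muscle-type genes in the Scn4a values was not tested.

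The sodium channel pores of neurons and glia did not pass. Scn2a, the pore of immature axons and of OPCs, gave 1.6, 1.54 and 1.09 FPKM under vehicle against 0.72, 1.08 and 0.83 under hemin, without overlap, although the highest hemin library was close to the lowest vehicle library (log2 fold change -0.64 ± 0.23, edgeR adjusted p = 0.0674). Scaled by totals alone it passed (-0.73, edgeR adjusted p = 0.0440). Scn8a, the pore of mature nodes of Ranvier, gave 1.68, 1.06 and 0.33 FPKM under vehicle against 2.15, 1.44 and 0.53 under hemin (0.5 ± 0.64, edgeR adjusted p = 0.587). In both groups replicate 1 was the highest and replicate 3 the lowest, and the difference between groups was smaller than the spread inside them. Each hemin library was, however, above the vehicle library of the same number. A fit with the replicate number as a block gave Scn8a a log2 fold change of 0.55, still without a call (edgeR adjusted p = 0.0562). Scn3a, the embryonic pore, was between 0.66 and 1.40 FPKM with vehicle and between 0.54 and 1.28 with hemin (edgeR adjusted p = 0.951). Scn1a, the pore of inhibitory interneurons, was between 0.51 and 0.85 FPKM with vehicle and between 0.61 and 1.09 with hemin (edgeR adjusted p = 0.368). Scn7a, Scn9a, Scn10a and Scn11a, channels of sensory neurons and of sodium sensing cells, had at most 8 counts in any library. Scn11a was the one of these with separate groups, at 4, 2 and 3 counts under vehicle against 8, 6 and 6 under hemin.

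**Figure D3:**
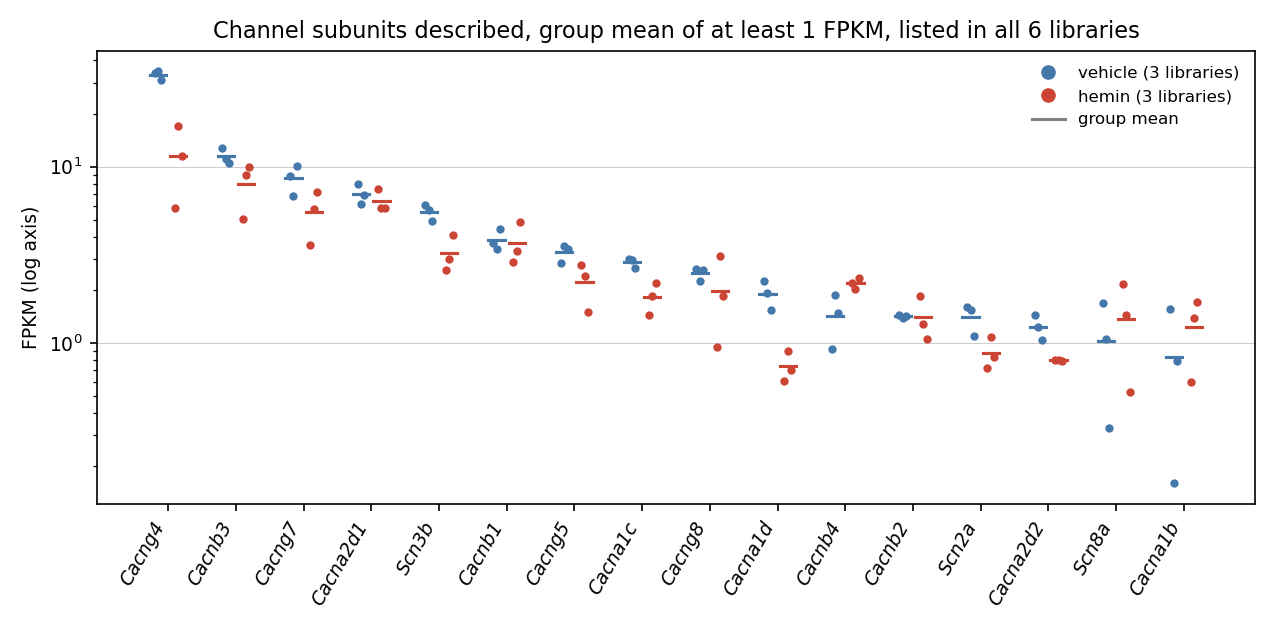
FPKM on a log axis (y) of 16 subunits with a group mean of at least 1 FPKM and a value in all 6 libraries, ordered by their vehicle mean (x), with 1 point per library and a line at each group mean. Cacng4 is highest in vehicle at 31.0 to 34.7 FPKM and lies at 5.84 to 17.1 with hemin, whereas Cacna2d1 overlaps between the groups.

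The most abundant subunits described here lay closer together with hemin. With vehicle, Cacng4 (33.3 ± 1.96 FPKM, SD, n = 3) stood clear of Cacnb3 (11.4 ± 1.18), and Cacnb3 clear of Cacng7 (8.57 ± 1.61) and Cacna2d1 (7.0 ± 0.941), whose libraries overlapped with each other. With hemin, Cacng4 (11.5 ± 5.61), Cacnb3 (7.98 ± 2.62), Cacna2d1 (6.39 ± 0.95) and Cacng7 (5.50 ± 1.81) each overlapped with the next.

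**Figure D4:**
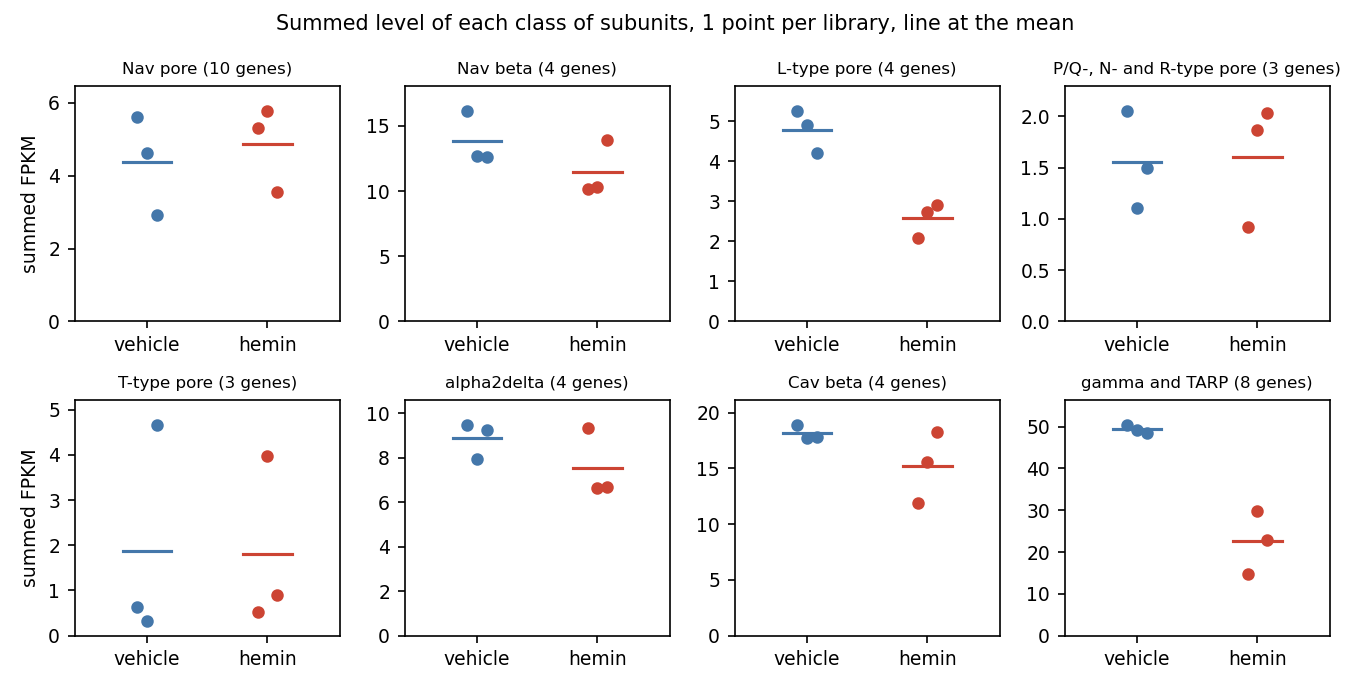
Summed FPKM (y axis, from 0) of each class of subunits, 1 point per library and a line at the group mean, vehicle in blue and hemin in red. Gamma and TARP genes (48.4 to 50.3 against 14.8 to 29.8 FPKM) and L-type pores (4.21 to 5.25 against 2.08 to 2.90 FPKM) separate the groups, and the T-type panel is set by the uneven Cacna1h values. Cacng4 makes up 33.3 and 11.5 FPKM of the gamma and TARP means of 49.3 with vehicle and 22.5 with hemin.

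Several subunits are neighbours in the genome, but a shared call was possible only where both neighbours were tested. Those pairs were Cacng4 with Cacng5, Cacng7 with Cacng8 and Scn3a with Scn2a, and only the first held a call. On chromosome 11, Cacng1, Cacng4 and Cacng5 follow each other, and only Cacng4 was called, while Cacng1 was not tested. On chromosome 9, Scn2b was called and the adjacent Scn4b was near 0 and not tested. On chromosome 7, none of Cacng7, Cacng8 and Cacng6 was called, nor any of Scn3a with Scn2a or of Scn1a, Scn9a and Scn7a on chromosome 2. Cacng6, Scn9a and Scn7a could not be called, since they were not tested. Whether neighbours differ from each other was not tested.

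Gem and Rrad, regulators of calcium channels, had larger folds than any subunit tested. Of 17 tested partners of calcium channels 4 rose and 5 fell, beside 16.2% and 15.7% of all genes. The median log2 fold change of the list was 0.03. The RGK proteins, small GTPases that bind beta subunits and inhibit calcium currents, were among those that rose. Gem stood at 1.18, 1.07 and 1.46 FPKM under vehicle against 18.1, 17.1 and 19.8 under hemin, 15.3-fold higher (edgeR adjusted p = 0.000162). Rrad stood at 0.98, 0.90 and 0.52 FPKM under vehicle against 5.87, 8.70 and 9.52 under hemin, 10.3-fold higher (edgeR adjusted p = 0.000593). Rem2 stood at 1.18, 1.17 and 1.22 FPKM under vehicle against 3.84, 3.73 and 4.32 under hemin, 3.44-fold higher (edgeR adjusted p = 0.00167). The groups were far apart for all 3, with little spread inside them for Gem and Rem2. The fourth RGK gene, Rem1, was at 0 in all libraries but 1. Akap5, an anchor that holds kinases at L-type channels, fell 2.99-fold, from 2.19, 2.70 and 1.49 FPKM to 0.57, 0.61 and 0.89 (edgeR adjusted p = 0.00541). The other calls of the list were Ahnak, higher, and Rims2, Calm2, Stx1a and Rimbp2, lower. The calls of Gem, Rrad, Rem2 and Akap5 held without any single library, whereas the 5 falls of the list became 2 without vehicle replicate 1, 2 or 3 and 3 without hemin replicate 2.

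Of 14 tested partners of sodium channels 2 rose and 4 fell, beside 16.2% and 15.7% of all genes, with a median of -0.27. Pkp2, a desmosomal plakophilin that binds sodium channels in heart, rose 3.31-fold, from 0.55, 0.70 and 0.85 FPKM to 2.09, 2.17 and 2.5 (edgeR adjusted p = 0.00331). Gpd1l, a dehydrogenase-like regulator of sodium current, fell 1.47-fold, from 22.4, 25.6 and 20.9 FPKM to 14.1, 15.6 and 15.5 (edgeR adjusted p = 0.00633). Fgf12, an intracellular FGF homologous factor that shifts inactivation, fell 2.02-fold, from 5.39, 4.90 and 5.53 FPKM to 1.90, 2.51 and 3.30 (edgeR adjusted p = 0.00923). Sptbn4, the spectrin that anchors channels at axon initial segments, fell 2.34-fold from below 1 FPKM (edgeR adjusted p = 0.00997). These 4 calls held without any single library. The other calls of the list were Sntb2, higher, and Nfasc, lower. The 2 rises became 1 without vehicle replicate 2 or 3.

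Of 4 tested genes of the sodium leak channel complex, a relative of these pores, 2 fell, beside 15.7% of all genes. The median was -0.57. Fam155a, the extracellular partner of the complex, fell 2.51-fold, from 2.45, 3.38 and 2.38 FPKM to 1.29, 1.24 and 0.61 (edgeR adjusted p = 0.0208, and 0.0756 without vehicle replicate 2). Unc80, its scaffold, fell 1.63-fold (edgeR adjusted p = 0.0169, and 0.0743 and 0.0631 without vehicle replicate 1 or 2), and was lost in limma at a pseudocount of 0.1 (limma adjusted p = 0.0563) or with no filter (0.0641). The pore Nalcn itself gave 3.39, 2.28 and 1.55 FPKM under vehicle against 1.15, 2.30 and 2.70 under hemin. Without vehicle replicate 1 the list had 1 lower call, and without vehicle replicate 2 none was called.

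Sodium and calcium extrusion showed 4 lower genes of 14 tested, beside 15.7% of all genes, with a median of -0.10. Slc8a3, a sodium-calcium exchanger, fell 2.42-fold, from 2.83, 3.73 and 2.88 FPKM to 1.28, 1.08 and 1.39 (edgeR adjusted p = 0.00319), a call that held without any single library. Slc8a2, a further exchanger, fell 1.67-fold (edgeR adjusted p = 0.0247), and was lost without vehicle replicate 1 (0.0961), vehicle replicate 2 (0.0972), hemin replicate 1 (0.0526) or hemin replicate 3 (0.0665). The plasma membrane calcium pump Atp2b2 fell 1.89-fold (edgeR adjusted p = 0.0131, and 0.0582 without vehicle replicate 1). Its relative Atp2b4 fell 1.77-fold (edgeR adjusted p = 0.0407), and among the fits without 1 library kept its call only without hemin replicate 3, the other values being 0.0548, 0.131 and 0.118 without vehicle replicates 1 to 3 and 0.0858 and 0.121 without hemin replicates 1 and 2. In limma at a pseudocount of 0.1 or with no filter Atp2b4 was not called (limma adjusted p = 0.0575 and 0.0762). All 4 remove calcium from the cell. The 4 falls became 1 without vehicle replicate 1 and 2 without vehicle replicate 2 or hemin replicate 1. Of 11 genes that release calcium from stores or refill them, none was called by edgeR or DESeq2, beside 31.9% of all genes with edgeR. Of the 11, 2 had an unadjusted edgeR p below 0.05, and limma on log2(FPKM + 1) called 1. The log2 fold changes of Ryr2 and Itpr1 had wide standard errors, 1.41 and 1.02, and Ryr1 did not exceed 0.11 FPKM. The smallest adjusted p of the 11 was that of Orai3, a calcium entry channel of the plasma membrane, at 2.69, 3.02 and 2.41 FPKM under vehicle against 1.61, 1.76 and 1.47 under hemin (edgeR adjusted p = 0.0604).

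**Figure D5:**
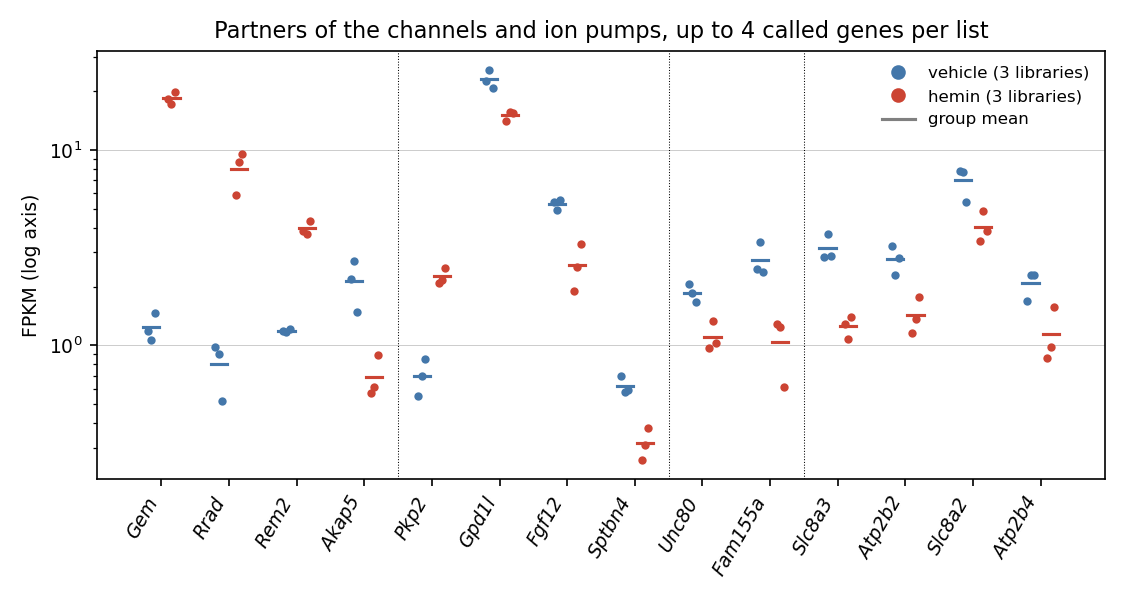
FPKM on a log axis (y) of up to 4 called genes from each partner list (x, lists divided by dotted lines), 1 point per library and a line at the group mean. Gem, Rrad, Rem2 and Pkp2 are higher with hemin (red) than with vehicle (blue), and the other 10 genes are lower.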

How the data were processed

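RNA of 3 vehicle and 3 hemin samples was sequenced, and the authors deposited an expected count and an FPKM value per RefSeq transcript. Bowtie 0.12.2, RSEM and the builds mm8 and mm9 are named per the submitters' processing notes, without their roles, and no source used here gives strand or read filters. The deposited expected counts are estimates of reads per transcript, not scaled for depth. The deposited FPKM values were scaled by the authors for transcript length and depth. Here both were summed per Entrez gene (26421 transcripts, 18743 genes), with 16 retired identifiers replaced through the transcript accession and symbols found for 18711 genes. A table of predicted new genes was not used.

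Expected counts were rounded and tested with edgeR 4.0.16 in R 4.3.3 (filterByExpr by group, TMM scaling, quasi-likelihood test, two-sided, Benjamini-Hochberg adjustment over 12779 genes, common biological coefficient of variation 0.208). The standard error is the fold change divided by the root of F. Alternatives used DESeq2 1.42.0 and limma 3.58.1 with a trend on log2(FPKM + 1) or log2(FPKM + 0.1), other scalings and filters, a replicate block and each library left out. Groups came from the labels' titles and treatment. The steps were tested on simulated data.

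The members and all gene lists were chosen with earlier results of these data known. Every member entered the fit and the counts, and a few genes are not reported singly here. Values in each library are given for the other members that were called or reach a mean of 1 FPKM, and up to 4 called genes with the smallest p are named from each partner list. The filter on low counts, which left 26 members, can keep a gene through 1 group alone. Among the lower calls this held for Cacng2 and Scn2b. They had at most 8 counts in a hemin library and at least 12 in a vehicle library. Promoter windows come from RefSeq on GRCm38.p6 and matched 30 of 40 members.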

Additional observations from a re-analysis of the deposited data

How the results depend on the processing

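Cacna1d and Cacng4 were called lower under each of the 15 alternatives. Without single libraries, genes called ranged from 2551 to 4530 over all genes, lower calls from 1109 to 2317, and subunits called from 0 to 2 higher and from 2 to 6 lower. The lowest values came without vehicle replicate 1 (2597 genes called, 1136 lower) or 2 and, for subunits, without hemin replicate 2. Subunits called higher numbered 2, 1 of them Scn4a, in edgeR with no filter and in limma without one. They again numbered 2, with Scn4a, in edgeR with a filter of at least 10 counts in 3 libraries. That filter tested 27 subunits, beside 26 in the main fit, and kept Scn4a through the hemin libraries alone. Limma with a filter called 0 subunits higher at either pseudocount. That filter asks for a mean of at least 0.5 FPKM and left 21 subunits. Subunits called higher in the other fits had lower means, so they could not be called there. Scaling by totals alone moved the median of all genes to -0.09. Replicate numbers are shared between the groups, and same-numbered libraries deviated from their group means with correlations of 0.060, 0.12 and 0.167 (other pairs from -0.134 to 0.025), so each correlates best with its own number, a hint from the data and not the design. With the replicate block 3728 genes were called, and the 7 subunits kept their calls.

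Among partner lists, leaving out single libraries gave 1 to 2 higher sodium channel partners, 2 to 4 lower calcium channel partners, 0 to 2 lower leak channel genes and 1 to 4 lower extrusion genes. With the block, 3 calcium channel partners were lower and 1 extrusion gene was higher. Limma without a filter gave 1 higher sodium channel partner and 1 lower leak channel gene, the latter also at a pseudocount of 0.1. Store genes had 1 lower call with scaling by totals and in each limma setting.

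No called subunit changed sign. Log2 fold changes of uncalled subunits crossed 0 as follows, and the cause was not tested. Leaving out single libraries, Cacna2d1 ranged from -0.2398 to 0.036 (above 0 without vehicle replicate 1 and, at 0.0019, without hemin replicate 3), Cacna2d3 from -7.4062 to 0.42, Cacnb1 from -0.2356 to 0.1410, Cacnb2 from -0.25 to 0.2155, Cacng8 from -0.7895 to 0.013, Scn3a from -0.3176 to 0.30 and Scn8a from -0.02 to 1.0667. Cacnb1 also gave 0.0056 with the filter of at least 10 counts in 3 libraries. Cacnb2 gave -0.0596 scaled by totals, -0.0076 with no filter, -0.0269 in limma with and without a filter, -0.0554 at a pseudocount of 0.1 and -0.0026 with the block. Scn2b rests on few counts (43 with vehicle and 15 with hemin), which widens its counting error.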
